A study of Mus musculus with 2 samples.

Results

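Axon guidance genes encode the secreted and membrane-bound cues that steer growing axons and migrating cells, together with the receptors that read them. The 69 genes described here were chosen by symbol alone: semaphorins of classes 3 to 7, A to D plexins, the neuropilins *Nrp1* and *Nrp2*, ephrins A and B, Eph receptors A and B, *Slit1* to *Slit3*, the Robo receptors, the netrins *Ntn1* and *Ntn4*, *Dcc* and the Unc5 receptors. They are 69 of 55450 genes listed in scRNA-seq data of mouse cerebral cortex, where barcodes tell captured cells apart and unique molecular identifiers (UMIs) mark single RNA molecules. Of the 69 symbols, *Unc50* and *Unc5cl* only share the letters of the prefix and are not guidance receptors, and 3 antisense transcripts of *Plxna4* were left out. In total 61 members had at least 100 UMIs over both libraries, and 8 had fewer, namely *Efna4*, *Epha1*, *Epha2*, *Ephb4*, *Robo4*, *Sema3b*, *Sema3g* and *Unc5cl*.

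There was 1 library for each condition, both from cerebral cortex of C57BL/6 mice labelled as 2 weeks old. The labels of both samples give 1 procedure, with the right common carotid artery tied on postnatal day 7 and 1 h of hypoxia. Cortex was taken on day 14, from the ligated side in the white matter injury (WMI) group and from the same side in the control group, and whether control mice had any of the surgery or hypoxia is not said. The study's methods give earlier days for both steps, a longer hypoxia and in places a control hemisphere in place of control mice. The days and the length of hypoxia could not be settled from the counts. *Xist* was counted in 4 control and 4801 WMI cells, so the libraries cannot be 2 hemispheres of the same mice. The methods also give a cell suspension where the labels describe nuclei, and which of these was used was not tested. The study describes replicate animals that were integrated, but the deposited counts hold 1 matrix for each condition with no map from cells to animals, so the spread from animal to animal could not be estimated and no test was run.

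The control library held 66470806 UMIs in 10288 barcodes and the WMI library 60568639 UMIs in 8354 barcodes, of which 36 barcodes occurred in both. After filters and doublet removal, 8755 control and 7571 WMI cells remained, with medians of 4567 and 5058 UMIs. The median share of mitochondrial UMIs in these cells was 0.0596% and 0.448%, a difference between the libraries whose source was not tested. Clusters were formed without the 69 members and named from marker lists that hold none of them. The labelled neurons and glia were present, but 5 of 33 clusters took at least 90% of their cells from 1 library, and only 59.2% of control and 67.5% of WMI cells received a name. The excitatory and inhibitory names were given only to clusters with more than 10% and under 90% WMI cells. Clusters 0 (2364 control and 29 WMI cells) and 3 (1111 and 14) therefore stayed unnamed, though they held 5 and 9 of the 10 excitatory markers. Cells with a UMI of *Xist* numbered 4 in the control and 4801 (63.4%) in the WMI library, so sex and condition cannot be told apart. Neuronal transcripts were also counted in glial classes: the 10 excitatory marker genes summed to 1938 and 1720 counts per 1000000 UMIs in excitatory neuron-like cells of the control and WMI libraries, and still to 1077 and 639 in microglia-like cells. Where these transcripts came from was not tested. An estimate of such RNA from outside the cell (free RNA) is given beside some of the levels below. All levels are counts of a gene per 1000000 UMIs of the cells (CPM), the 95% intervals are exact and cover counting error only, and paired values are always control first and WMI second.

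Semaphorins act through plexins, and most class 3 semaphorins need a neuropilin beside the plexin. Ephrins bind Eph receptors and both partners sit on cell membranes, Slit proteins signal through Robo receptors, and netrin 1 attracts through DCC and repels through the UNC5 receptors. In the brain the same families also guide the migration of oligodendrocyte precursor cells (OPCs), the spacing of glia, the growth of vessels and the layering of neurons. The members together took 1.20% of all control UMIs and 1.26% of all WMI UMIs. Their genes ranged up to 1097 kb in length with a median of 56.6 kb, and across the 69 genes the UMI total followed the gene length (Spearman's rho of 0.83, a description across genes, which are not independent replicates). For this reason each gene was compared with itself across cells, and not with other genes.

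**Figure D1:**
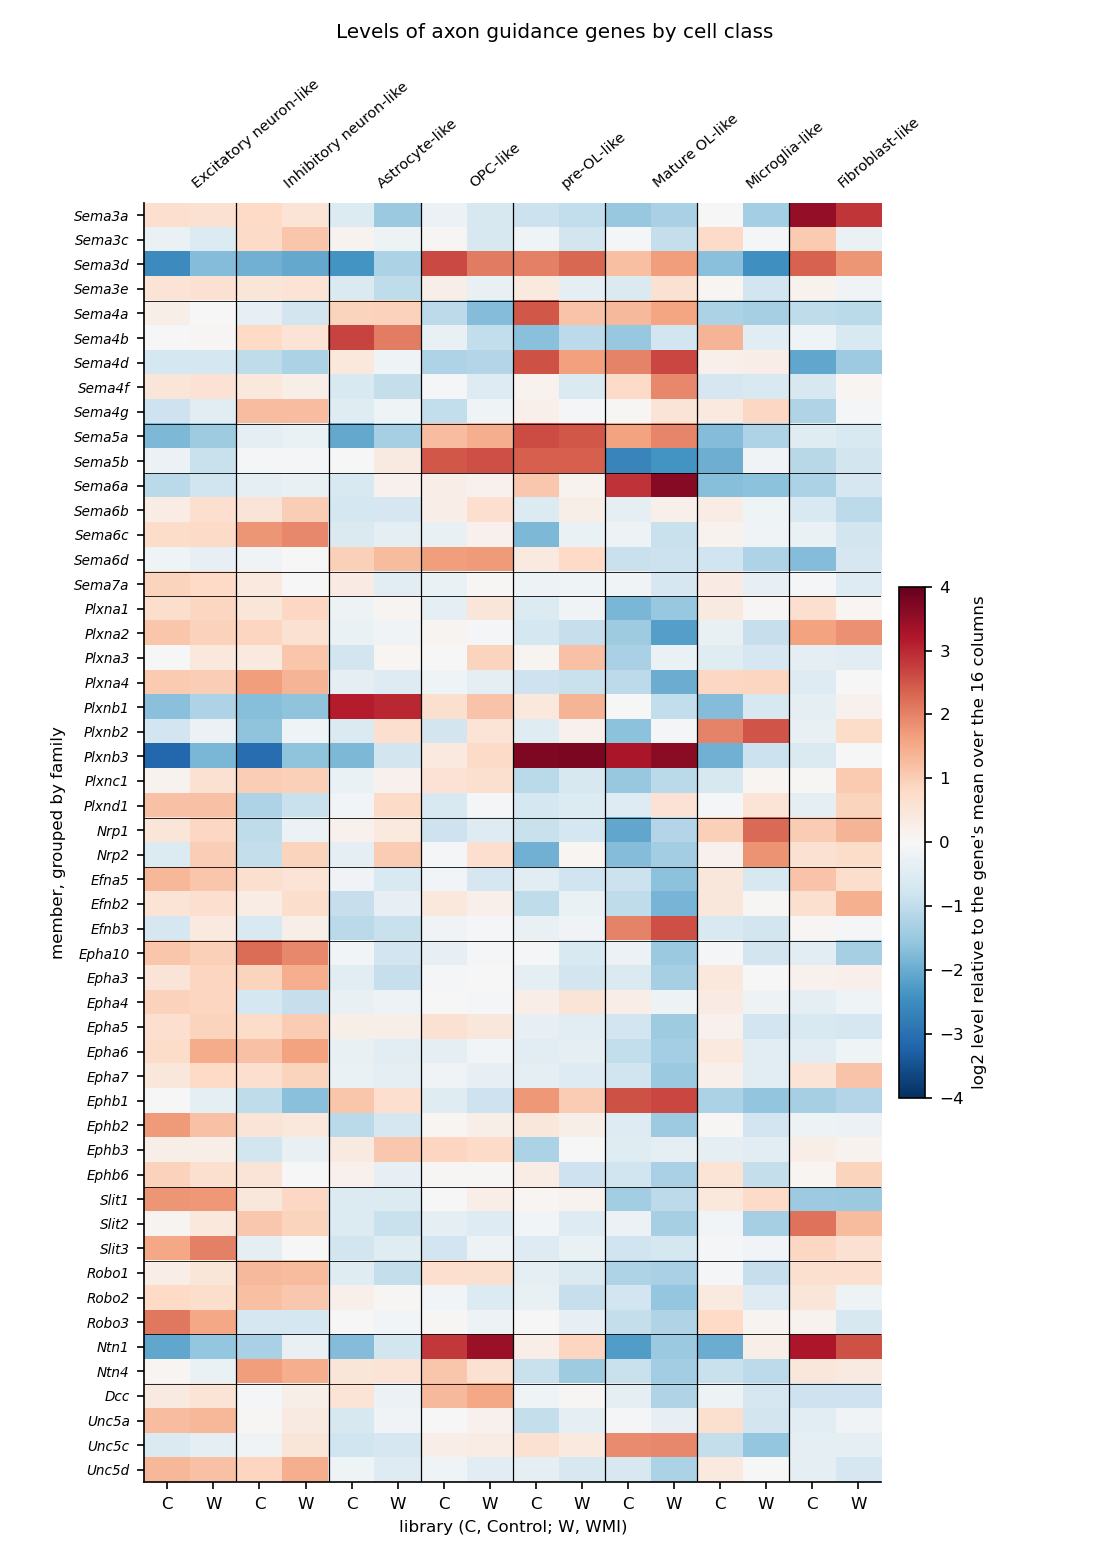
Levels of the 52 members with at least 1000 UMIs in the 8 named classes with at least 50 cells in each library, C for control and W for WMI. Colour gives the log2 level relative to the gene's own mean over the 16 columns, so it shows where each gene is high and not which gene is highest. Dark red marks *Plxnb3* in pre-OL-like and mature OL-like cells, *Sema6a* in mature OL-like cells, *Ntn1* in OPC-like and fibroblast-like cells, *Sema3a* in fibroblast-like cells and *Plxnb1* in astrocyte-like cells.

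Members that marked a class were sought in the 8 classes with at least 50 cells in each library and in endothelial-like cells. A member was counted when it had at least 100 UMIs in the class over both libraries and a level at least 4-fold above all other named cells in each library. In a class with few UMIs the 100 UMIs stand for a higher level. Mature OL-like cells held 804275 and 484988 UMIs in all, and excitatory neuron-like cells 36196142 and 32544612. Each count is therefore to be read beside the share of all genes in the same class, and not beside other classes. In mature OL-like cells 9 of 21 members with enough UMIs passed, where 13.2% of all genes did. In pre-OL-like cells 5 of 29 passed (5.16% of all genes), in OPC-like cells 3 of 34 (2.85%), in astrocyte-like cells 2 of 35 (7.34%), in fibroblast-like cells 2 of 20 (12.8%) and in microglia-like cells 1 of 25 (11.8%). No member passed in excitatory neuron-like cells (0 of 60, where 0.106% of all genes passed) or in inhibitory neuron-like cells (0 of 45, 1.70%). In endothelial-like cells (21 and 15 cells) only *Sema6a* had enough UMIs, and it passed (20.1% of all genes), at 839 and 1174.

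*Plxnb1*, a plexin that binds SEMA4D, reached 109 and 98.6 CPM in astrocyte-like cells. It was at 4.84 and 7.88 in all other named cells, a ratio of 22.5 and 12.5, and the free-RNA estimate for it in astrocyte-like cells was 7.06 and 7.44. *Sema4b*, a transmembrane semaphorin, was the other astrocyte gene, with 69.5 and 44.1 against 11.4 and 10.5. *Plxnb2*, also a plexin of class B, passed in microglia-like cells, with 60.2 and 88.0 against 8.61 and 15.2. In both libraries, then, *Plxnb1* passed in astrocyte-like, *Plxnb2* in microglia-like and *Plxnb3* in pre-OL-like and mature OL-like cells.

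Fibroblast-like cells (53 and 88 cells), which line the meninges and larger vessels, carried *Sema3a*, the secreted semaphorin that collapses growth cones. Its level was 530 and 335 against 68.2 and 62.5 in all other named cells. *Sema3d* reached 218 and 143 there, but it also passed in the 3 classes of the OL lineage. Outside the 4-fold rule, *Slit2* stood at 792 and 423 in these cells and *Ntn1*, on 52 and 44 UMIs, at 164 and 102.

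Along the OL lineage, from OPC-like through premyelinating OL-like (pre-OL-like) to mature OL-like cells, some guidance genes were lower and others higher at the end, in both libraries. Between OPC-like and mature OL-like cells, 5 of 29 members were at least 2-fold higher in the mature cells of the control library (14.3% of all genes were) and 10 were at least 2-fold lower (20.2%). In the WMI library 6 of 30 members were higher (11.9%) and 15 were lower (27.5%). The median log2 ratio of mature over OPC-like cells was -0.65 over the members and -0.14 over all genes in the control library, and -1.0 and -0.32 in the WMI library. Between OPC-like and pre-OL-like cells, 5 of 30 members were higher (7.91% of all genes) and 5 lower (8.62%) in the control library, and 5 of 38 were higher (6.21%) and 4 lower (6.93%) in the WMI library. When the 100 UMIs were counted over all 3 stages, 9 of 51 members were higher in mature OL-like cells by at least 2-fold in both libraries (8.52% of all genes) and 15 of 51 were lower (14.6%). This rule asked for no interval, and counts under 3 were set to 3. Several of the lower members rested on few UMIs in mature cells, such as *Plxna3* (4 and 5), *Plxna1* (4 and 3), *Efnb2* (9 and 3), *Ephb3* (6 and 4) and *Ntn4* (7 and 0). The groups held 300 and 478 OPC-like, 150 and 447 pre-OL-like and 93 and 51 mature OL-like cells.

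**Figure D2:**
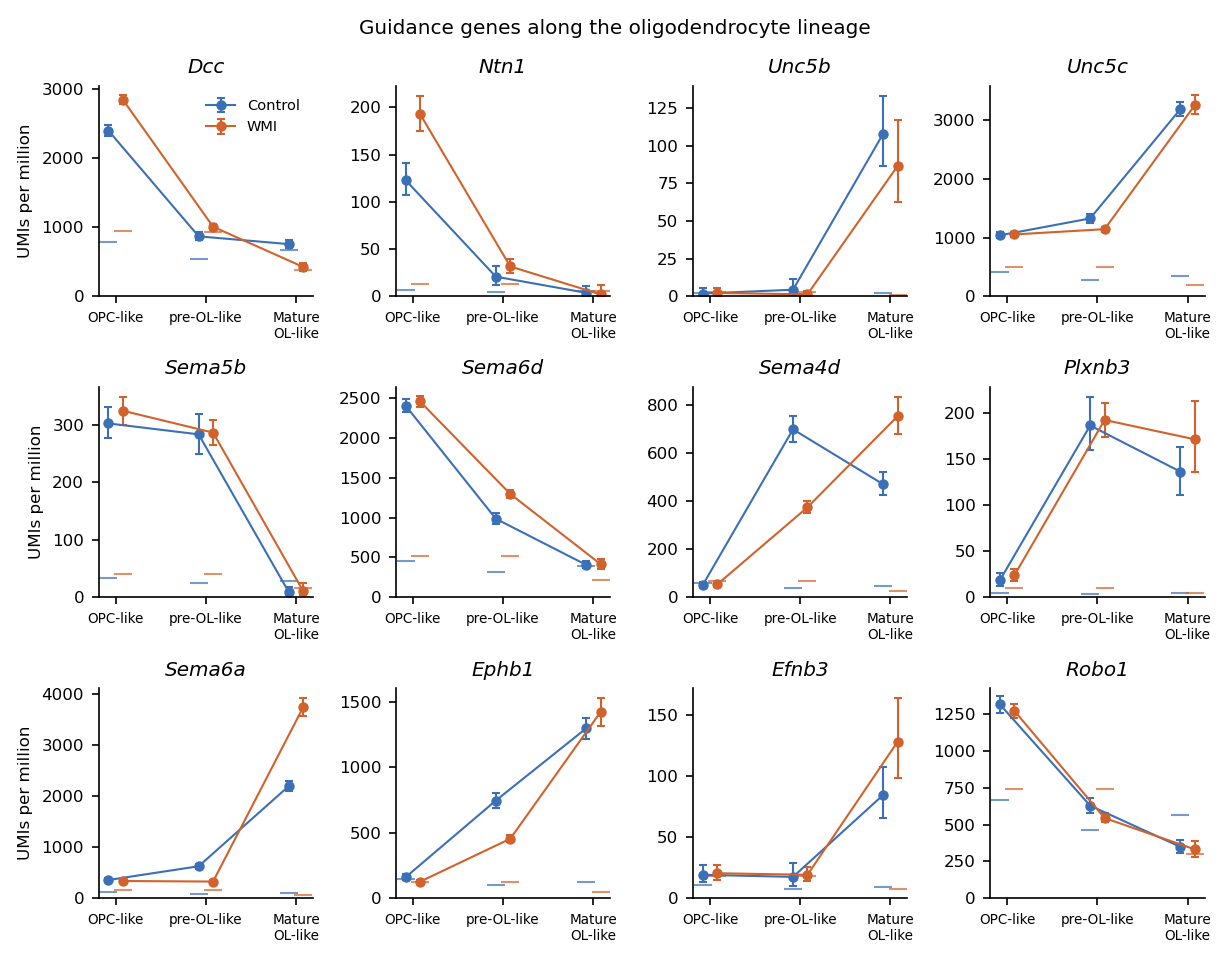
Levels in CPM of 12 members in OPC-like, pre-OL-like and mature OL-like cells of the control and WMI libraries. Points are levels, bars are 95% Poisson intervals (counting error only) and short dashes are the free-RNA estimate. *Ntn1*, *Sema5b*, *Sema6d*, *Dcc* and *Robo1* are lowest in the mature cells of both libraries, while *Unc5b*, *Unc5c*, *Sema6a*, *Ephb1* and *Efnb3* are highest there.

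The netrin system changed its members along the lineage. *Ntn1* (chr11:68209364-68400823 on GRCm38), which encodes the secreted ligand netrin 1, was at 123 and 193 in OPC-like cells, at 20.8 and 31.6 in pre-OL-like cells, and at 3.73 and 2.06 in mature OL-like cells, where it rested on 3 and 1 UMIs. Its log2 ratio of mature over OPC-like cells, with its interval, was -5.04 (-7.33 to -3.48) in the control and -6.55 (-11.85 to -4.06) in the WMI library. *Dcc*, the attractive netrin receptor, fell from 2404 and 2852 in OPC-like cells to 870 and 1009 and then to 757 and 425 in mature OL-like cells. The free-RNA estimates for *Dcc* in the mature cells were 666 and 384, close to the levels themselves.

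The UNC5 receptors went the other way. *Unc5b* was at 1.85 and 2.23 in OPC-like and at 4.38 and 1.28 in pre-OL-like cells, and it stood at 108 and 86.6 in mature OL-like cells. Its log2 ratios of mature over OPC-like cells were 5.87 (4.27 to 8.17) and 5.28 (3.94 to 6.97), on 87 and 42 UMIs in the mature and 3 and 5 in the OPC-like cells. *Unc5c* was already present in OPC-like cells at 1040 and 1055 and was at 3192 and 3260 in mature OL-like cells, with log2 ratios of 1.62 (1.53 to 1.71) and 1.63 (1.54 to 1.72). OPC-like cells thus held the ligand and *Dcc* together with *Unc5c*, whereas mature OL-like cells held *Unc5b* and *Unc5c* with little *Ntn1*. *Unc5d* did not follow them, at 409 and 344 in OPC-like and 296 and 194 in mature OL-like cells, and *Unc5a* was at 13 and 14.3 in OPC-like and 12.4 and 10.3 in mature OL-like cells.

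Semaphorins had several courses over the stages. *Sema5b* was shared by OPC-like (302 and 324) and pre-OL-like cells (283 and 286) and was nearly absent from mature OL-like cells (8.70 and 10.3, on 7 and 5 UMIs, with free-RNA estimates of 29.1 and 16.8). *Sema5a*, whose receptor is PLXNB3, was highest in the middle, at 524 and 611, then 1350 and 1250, then 684 and 866. *Sema6d*, a transmembrane semaphorin, fell stepwise, from 2406 and 2458 to 986 and 1297 and then to 408 and 417. *Sema6a*, of the same class, ran against it, at 358 and 338 in OPC-like and 2196 and 3742 in mature OL-like cells.

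*Sema4d*, another transmembrane semaphorin, was near its free-RNA estimates (57.8 and 66.8) in OPC-like cells, at 51.3 and 53.6. It stood at 700 and 375 in pre-OL-like cells and at 471 and 755 in mature OL-like cells. *Sema4a*, of the same class, had a like course, with 9.27 and 5.80 in OPC-like, 108 and 42.8 in pre-OL-like and 47.2 and 57.7 in mature OL-like cells. *Plxnb3*, the receptor of SEMA5A, came on in pre-OL-like cells and stayed, at 18.5 and 23.7, then 186 and 192, then 136 and 171. *Sema3d*, a secreted semaphorin, was present at all 3 stages, at 264 and 177, 171 and 209 and 98.2 and 136.

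Among Eph receptors and ephrins, *Ephb1* rose at each step, from 161 and 127 to 747 and 455 and then to 1298 and 1423. *Efnb3*, a ligand of EphB receptors, was flat until the last step, at 19.2 and 20.5 in OPC-like, 17.5 and 19.2 in pre-OL-like and 84.5 and 128 in mature OL-like cells. *Epha5*, an Eph receptor of neurons, was at 573 and 518 in OPC-like and at 221 and 142 in mature OL-like cells, where its free-RNA estimates were 311 and 171. *Robo1*, the Slit receptor, was at 1316 and 1273 and at 349 and 332, beside estimates of 567 and 302 in the mature cells. In mature OL-like cells *Epha5* lay below its free-RNA estimate in both libraries. *Robo1* lay below its estimate there in the control and above it in the WMI library. How much of these levels came from free RNA was not tested.

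The shares of cells with a UMI, after each cell was thinned to 1000 UMIs, come from the same UMIs as the levels and are given for 3 genes chosen after their levels were seen. *Ntn1* was found in 9.0% (6.01 to 12.8) of control and 15.9% (12.7 to 19.5) of WMI OPC-like cells (Clopper-Pearson intervals) and in 0 of 93 and 0 of 51 mature OL-like cells, where the upper limits of the share of cells with a UMI were 3.89% and 6.98%. *Unc5b* was found in 8.60% (3.79 to 16.2) and 9.80% (3.26 to 21.4) of mature OL-like cells, and in 0.333% and 0% of OPC-like cells. *Sema6a* was found in 26.0% and 25.7% of OPC-like and 74.2% and 86.3% of mature OL-like cells. Without thinning, *Ntn1* was found in 40.3% and 46.7% of OPC-like and 3.23% and 1.96% of mature OL-like cells.

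Promoter windows from RefSeq annotation of GRCm38.p6 were used for 18 of these 24 genes. No window was found for *Ntn1*, *Efnb3*, *Plxna1* and *Slit1*. *Dcc* and *Sema6a* were left out before the search, so their absence says nothing about the annotation. The 250 bases before a start that RefSeq gives are shown for the 4 genes higher in mature cells that had 1 window each. *Sema5b* is shown as 1 example of the genes that were lower. Capitals mark the core motifs ACAAAG and ACAATG of SOX factors such as SOX10, a regulator of oligodendrocyte genes, searched on both strands (CTTTGT and CATTGT). Gene coordinates elsewhere in the text follow GENCODE M21, whose starts can differ: it places the whole *Unc5c* window and most of the *Sema5b* window inside the gene.
*Plxnb3*, chrX:73756853-73757102, plus strand: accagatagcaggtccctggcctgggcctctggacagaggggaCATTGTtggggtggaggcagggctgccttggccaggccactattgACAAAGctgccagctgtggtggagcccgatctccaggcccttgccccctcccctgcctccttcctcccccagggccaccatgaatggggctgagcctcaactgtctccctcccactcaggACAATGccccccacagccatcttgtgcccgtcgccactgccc
*Ephb1*, chr9:102354694-102354943, minus strand: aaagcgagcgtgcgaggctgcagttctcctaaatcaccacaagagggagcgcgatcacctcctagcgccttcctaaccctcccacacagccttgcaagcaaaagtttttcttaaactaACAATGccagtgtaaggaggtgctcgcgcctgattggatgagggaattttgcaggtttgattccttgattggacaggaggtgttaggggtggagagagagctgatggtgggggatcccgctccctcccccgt
*Unc5b*, chr10:60831582-60831831, minus strand: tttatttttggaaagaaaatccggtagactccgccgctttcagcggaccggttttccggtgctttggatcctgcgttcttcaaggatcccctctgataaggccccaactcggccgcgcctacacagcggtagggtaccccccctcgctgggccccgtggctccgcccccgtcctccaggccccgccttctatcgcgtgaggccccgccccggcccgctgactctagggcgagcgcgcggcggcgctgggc
*Unc5c*, chr3:141465314-141465563, plus strand: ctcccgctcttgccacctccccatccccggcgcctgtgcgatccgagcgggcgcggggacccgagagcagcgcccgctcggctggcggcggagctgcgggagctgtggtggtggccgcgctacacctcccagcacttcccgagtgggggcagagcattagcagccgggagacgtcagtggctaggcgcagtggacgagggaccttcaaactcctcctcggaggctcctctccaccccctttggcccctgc
*Sema5b*, chr16:35541112-35541361, plus strand: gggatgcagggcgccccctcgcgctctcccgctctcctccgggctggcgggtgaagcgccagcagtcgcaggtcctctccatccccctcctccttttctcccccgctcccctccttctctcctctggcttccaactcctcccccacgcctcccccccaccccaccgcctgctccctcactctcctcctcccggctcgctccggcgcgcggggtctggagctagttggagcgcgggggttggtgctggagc
*Plxnb3* held 3 matches, *Ephb1* held 1, and *Unc5b*, *Unc5c* and *Sema5b* held 0. Of all 32851 windows of this length 25.2% held at least 1 match. Over all windows used for the named genes, 4 of 13 windows of genes higher in mature cells held a match. For genes lower in mature cells 3 of 12 windows did, 1 each for *Ntn4*, *Plxnc1* and *Sema6d*, which are not shown. Both counts were near the share over all windows. A match is a description of the letters and not a binding site.

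Many members differed between the clusters of excitatory neurons. Of 43 members with at least 1000 UMIs in excitatory neuron-like cells, 28 varied at least 4-fold between the highest and the lowest of the 13 clusters in both libraries (13.9% of all genes with as many UMIs), and 29 were highest in the same cluster in both (34.6%). The genes named for single clusters were chosen after their values were seen. Clusters are given by their leading genes, which were found without the members.

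**Figure D3:**
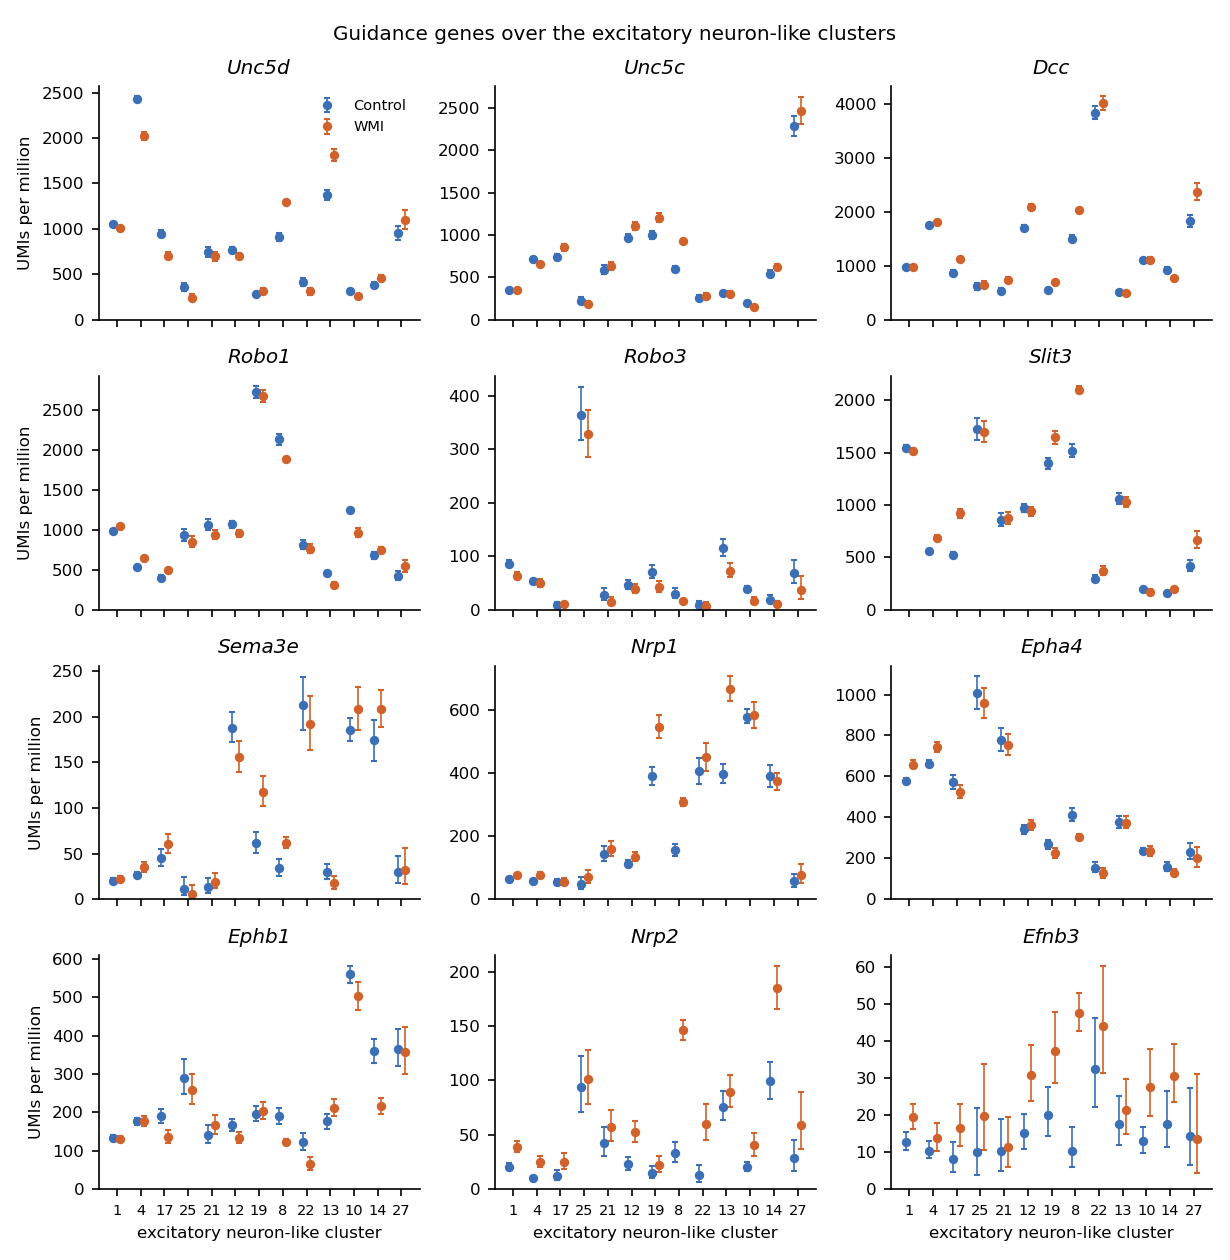
Levels in CPM of 12 members in the 13 excitatory neuron-like clusters of the control and WMI libraries, with 95% Poisson intervals. *Robo3* is highest in cluster 25, *Dcc* in cluster 22 and *Unc5c* in cluster 27 in both libraries, and *Nrp2* is higher in the WMI library in each of the 13 clusters.

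*Unc5d*, an UNC5 receptor, was highest in cluster 4, whose leading genes include *Rorb*, a gene of layer 4, at 2426 and 2022, against 282 and 241 in the lowest cluster. *Dcc* was highest in cluster 22, led by *Slc17a8*, at 3837 and 4011 against 519 and 499. *Unc5c* was highest in cluster 27, led by *Oprk1*, at 2289 and 2470 against 202 and 156. These 3 netrin receptors had their peaks in 3 separate excitatory clusters, the same ones in both libraries.

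*Robo3*, a receptor known from commissural axons, stood out in cluster 25, led by *St8sia6* and *Tcerg1l*, at 365 and 328 against 8.4 and 6.78 in the lowest cluster. *Epha4*, a receptor for both kinds of ephrin, was also highest in cluster 25, at 1008 and 957. *Robo1* was highest in cluster 19, led by *Stac* and *Erg*, at 2734 and 2683. Cluster 19 also had the highest level of *Slit2*, which encodes a Robo ligand, at 481 and 411.

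Cluster 10, led by *Syt6*, *Foxp2* and *Hs3st4*, genes of corticothalamic neurons of layer 6, had the highest *Ephb1* (560 and 503), *Ephb2* (381 and 273) and *Plxna2* (576 and 543) in both libraries. *Sema3e*, the secreted ligand of PLXND1, was at 186 and 208 in cluster 10 and at 20.4 and 21.8 in cluster 1. *Plxnd1* stood the opposite way in these clusters, at 5.25 and 9.0 in cluster 10 and 33.7 and 38.3 in cluster 1. *Slit1* was highest in cluster 22, at 275 and 286, and *Slit3* was high in cluster 1 (1544 and 1512), cluster 8 (1519 and 2100) and cluster 25 (1722 and 1699).

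Inhibitory neuron-like cells (465 and 384 cells) had *Robo1* at 2017 and 1975, against 982 and 1146 in excitatory neuron-like cells. *Plxna4*, a plexin that works with neuropilins, was at 984 and 800 against 640 and 605, and *Epha10* at 164 and 131 against 74.4 and 67.6. *Robo2* was highest in the few Cajal-Retzius-like cells (6 and 27 cells), early neurons of layer 1, at 6815 and 4136 against 968 and 898 in excitatory neuron-like cells. *Epha3* followed the same pattern, at 1735 and 1159 against 163 and 205.

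Known ligand and receptor pairs lay partly in the same and partly in different classes. Among the 8 classes *Sema4d* was highest in pre-OL-like and mature OL-like cells, and *Plxnb1* in astrocyte-like cells, with 12.4 and 2.06 in mature OL-like cells. *Sema5a* and *Plxnb3* were both highest in pre-OL-like cells, and *Efnb3* and *Ephb1* both in mature OL-like cells. *Sema3a* was highest in fibroblast-like cells, while *Nrp1* was at 189 and 240 in excitatory neuron-like, 262 and 657 in microglia-like and 498 and 649 in endothelial-like cells. *Sema3f* was low, at 7.93 and 7.44 in excitatory neuron-like cells, where its receptor gene *Plxna3* was at 12.4 and 16.4.

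Among the 8 classes *Slit3* was highest in excitatory neuron-like cells (898 and 1242) and *Slit2* in fibroblast-like cells, while *Robo1* was above 1000 CPM in inhibitory neuron-like, OPC-like and fibroblast-like cells of both libraries. *Efna5* (656 and 556) and its receptor *Epha4* (483 and 463) were both highest in excitatory neuron-like cells. *Sema6d* was also above its excitatory level (668 and 597) in astrocyte-like cells (1447 and 1804), and its receptor *Plxna1* was at 28.8 and 31.8 in excitatory neuron-like cells. *Sema7a* and its receptor *Plxnc1* were at 30.4 and 28.1 and at 43.8 and 59.5 in excitatory neuron-like cells.

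The comparison of WMI with control asked which of these genes differed with injury inside a class, and few did. At least 2-fold higher in WMI were 3 of 60 members in excitatory neuron-like cells (2.77% of all genes were), 2 of 45 in inhibitory neuron-like cells (1.64%), 2 of 35 in astrocyte-like cells (4.14%), 1 of 29 in pre-OL-like cells (1.77%), 2 of 25 in microglia-like cells (5.14%) and 1 of 20 in fibroblast-like cells (2.73%). None of 34 in OPC-like cells (1.25%) and none of 21 in mature OL-like cells (2.44%) was higher by that much. At least 2-fold lower were 1 of 29 in pre-OL-like cells (1.07% of all genes), 1 of 21 in mature OL-like cells (3.10%) and 2 of 25 in microglia-like cells (3.77%). None was lower by that much in excitatory (1.70%), inhibitory (0.494%), astrocyte-like (1.03%), OPC-like (0.394%) or fibroblast-like cells (1.82%). With 1 library per condition these counts have no replicate check, and most rest on 1 or 2 genes.

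*Nrp2* (chr1:62703285-62818695 on GRCm38), a co-receptor of class 3 semaphorins, differed most widely. It was at 25.4 and 74.5 in excitatory neuron-like, 19.5 and 69.1 in inhibitory neuron-like, 28.4 and 76.2 in astrocyte-like, 36.5 and 59.8 in OPC-like, 9.86 and 39.8 in pre-OL-like and 42.6 and 129 in microglia-like cells. Its log2 ratio of WMI over control was between 0.71 and 2.01, with the interval above 0 in 6 of the 6 named classes with enough UMIs. In excitatory neuron-like cells the ratio was 1.55, 1.44 to 1.66, and *Nrp2* was higher in WMI in 13 of 13 clusters, among them 33.1 and 146 in cluster 8 and 94.2 and 101 in cluster 25.

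Cluster 8 held 144 control and 593 WMI cells, and with the clusters weighted equally the *Nrp2* ratio in excitatory neuron-like cells was 0.89, under 2-fold. The free-RNA estimate for *Nrp2* was itself higher in WMI, 9.23 and 27.7 in excitatory neuron-like cells. In the same cells the 12 microglial markers summed to 109 and 324 CPM, and 11 of the 12 were higher in WMI. Unnamed cluster 5, which held all 12 microglial markers and was led by genes that include *Apobec1*, *Ms4a7* and *Mrc1* (21 control and 1042 WMI cells), had *Nrp2* at 146 and 144. With the free-RNA estimate subtracted the *Nrp2* ratio was 1.49 in excitatory neuron-like, 1.92 in inhibitory neuron-like, 1.22 in astrocyte-like and 1.17 in microglia-like cells, and it turned to -0.93 in pre-OL-like cells.

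*Nrp1*, the other neuropilin, was higher in WMI microglia-like cells, at 262 and 657 (log2 ratio 1.33, 1.09 to 1.56), a class of 405 control and 86 WMI cells. The ratio was 0.92 at a clustering resolution of 1.6 and 0.94 with doublets kept. Unnamed cluster 5, with 1042 WMI cells and all 12 microglial markers, was not part of this class. In the class these markers summed to 4760 and 7387 CPM, 9 of them higher in WMI and 3 lower. Its free-RNA share was estimated at 93.1% and 47.9%. Their part in the *Nrp1* ratio was not tested. *Efna5* (355 and 166) and *Slit2* (162 and 69.9) were lower in WMI microglia-like cells. Their free-RNA estimates there were 525 and 208 and 193 and 102, and all 10 excitatory neuron markers were lower in these WMI cells too.

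Differences in the opposite direction across classes were seen for *Robo2*, lower in WMI in 8 of 8 classes with log2 ratios from -0.90 to -0.11 and every interval below 0, and for *Efna5*, lower in 8 of 8 (-1.10 to -0.10, 7 intervals below 0). The classes share the free RNA of their library, so these are not independent observations. The medians over all genes tested lay between -0.05 and 0.11 in the 8 named classes.

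In pre-OL-like cells, *Sema4a* was at 108 and 42.8 (log2 ratio -1.34, -1.76 to -0.93). Of the 9 genes that were higher in mature OL-like cells, 6 had enough UMIs here. Of these, 5 stood lower in WMI with the interval below 0. The share of all genes lower with such an interval was not counted. The median log2 ratio here was 0.05 over all genes tested and -0.21 over all 29 members tested, so a lower level was not particular to these genes. *Sema6a* was at 627 and 328 (-0.93, -1.09 to -0.78), *Sema4d* at 700 and 375 (-0.90, -1.05 to -0.75) and *Ephb1* at 747 and 455 (-0.72, -0.86 to -0.57). *Unc5c* was at 1328 and 1145 (-0.21, -0.31 to -0.11) and *Plxnb3*, the exception, at 186 and 192 (0.04, -0.22 to 0.30). On fewer UMIs, *Sema4c* was at 9.86 and 16.2, *Efnb3* at 17.5 and 19.2 and *Unc5b* at 4.38 and 1.28. The 12 mature OL markers summed to 4317 and 3473 in the same cells, 8 of them lower in WMI and 3 higher. An earlier mean stage of the WMI pre-OL-like cells and a change within the stage therefore cannot be told apart. The free-RNA share was estimated at 43.5% and 67.2% in these cells, and its part in these ratios was not tested.

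In mature OL-like cells *Sema6a* (2196 and 3742, log2 ratio 0.77, 0.67 to 0.86) and *Sema4d* (471 and 755, 0.68, 0.47 to 0.89) stood higher in WMI. In the same cells the 12 premyelinating OL markers summed to 2218 and 4433 CPM, the 12 OPC markers to 954 and 1464 and the 6 neuron markers to 5359 and 3567, and the free-RNA share was estimated at 52.9% and 27.4%. Their part in these ratios was not tested. *Slit2* was the member past 2-fold, at 148 and 70.1 (-1.08, -1.67 to -0.52) on 119 and 34 UMIs. Its ratio was -0.23 with doublets kept, and its free-RNA estimates were 109 and 58.3. In OPC-like cells *Ntn1* was higher in WMI at 123 and 193 (0.65, 0.40 to 0.90) and *Sema3d* lower at 264 and 177 (-0.58, -0.78 to -0.37), both under 2-fold.

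In astrocyte-like cells *Plxnb2* was at 10.2 and 24.3 (log2 ratio 1.26, 0.59 to 1.97), on 25 and 75 UMIs, with free-RNA estimates of 7.55 and 11.7. The 12 microglial markers summed to 189 and 595 CPM in these cells, 11 of them higher in WMI, and their part in the *Plxnb2* ratio was not tested. *Dcc* was lower in WMI astrocyte-like cells, at 1425 and 833 (-0.78, -0.85 to -0.70), and in OPC-like cells it was at 2404 and 2852 (0.25, 0.19 to 0.30). In the astrocyte-like cells 9 of 10 excitatory markers were also lower in WMI (sums of 714 and 515), as were 5 of 6 neuron markers (7352 and 5893), beside free-RNA shares of 65.8% and 54.3%, and their part in the *Dcc* ratio was not tested. In excitatory neuron-like cells *Efnb3* was at 13.3 and 28.0 (1.07, 0.91 to 1.24), higher in WMI in 12 of 13 clusters, and its ratio was 0.79 with equal weights of clusters. *Plxnb3* was at 1.6 and 3.93 in those cells (1.30, 0.84 to 1.77), and its ratio was 0.11 with free RNA subtracted. When the unnamed neuronal clusters of the control library were counted as excitatory neurons, the ratios were 0.70 for *Efnb3* and 0.45 for *Plxnb3*. That of *Nrp2* stayed at 1.55. *Sema6d* in fibroblast-like cells was at 227 and 471 (1.05, 0.66 to 1.46), and its ratio was -0.02 at a clustering resolution of 0.4. *Unc50*, not a guidance gene, was at 6.93 and 19.3 in inhibitory neuron-like cells (1.48, 0.86 to 2.12).

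**Figure D4:**
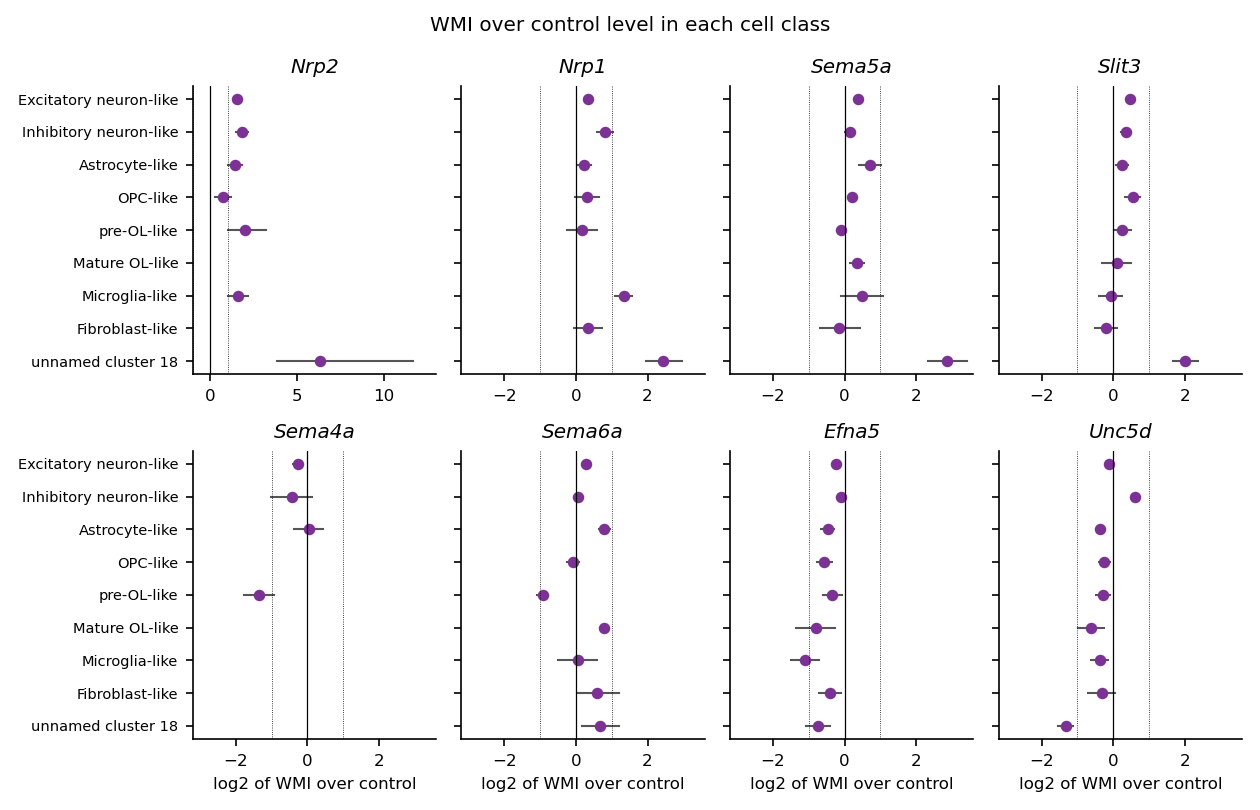
Log2 ratio of the WMI over the control level for 8 members in each cell group with at least 100 UMIs of the gene, with exact 95% intervals (counting error only) and dotted lines at 2-fold. *Nrp2* lies above 0 and *Efna5* below 0 in each group drawn, and unnamed cluster 18 has the highest ratios of *Nrp1*, *Nrp2*, *Sema5a* and *Slit3*. The *Nrp2* panel has a wider axis.

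Cells of cluster 18 (61 control and 191 WMI cells), which stayed unnamed, were led by genes that include *Igfbpl1*, *Draxin*, *Dlx1* and *Dlx6os1*, known from young neurons. In this cluster 7 of 25 members were at least 2-fold higher in WMI, where 3.88% of all genes were, and 1 was at least 2-fold lower (1.10%). *Nrp2* was at 3.07 and 249, on 1 and 201 UMIs (log2 ratio 6.34, 3.85 to 11.65). *Sema5a* was at 92.1 and 665, *Nrp1* at 114 and 612 and *Slit3* at 227 and 921. *Epha7* (89.0 and 232), *Sema5b* (76.7 and 173) and *Sema3c* (144 and 320) were also higher in WMI, and *Unc5d* was lower, at 1062 and 421. *Dcc* (2490 and 3395) and *Robo2* (3475 and 2008) were high in both libraries. The free-RNA share was estimated at 59.6% and 82.3% in cluster 18. The 12 microglial markers summed to 169 and 745 CPM there, 11 of them higher in WMI and 1 lower. The 12 OPC markers summed to 1796 and 3292, with 8 higher and 4 lower. Their part in these ratios was not tested. Since the cluster has no name, a different mixture of young neurons in each library and a change within 1 cell type cannot be told apart.

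Other genes of these pathways differed little between the libraries and more along the lineage. Of 16 co-receptors and further cues, 15 had enough UMIs in excitatory neuron-like cells and 0 were 2-fold apart between WMI and control, and of 38 intracellular mediators 37 had enough and 0 were. Between OPC-like and mature OL-like cells, 2 of 7 cues were higher and 3 lower in the control library, and 2 and 5 of 7 in the WMI library. Of the mediators 5 of 25 were higher and 6 lower in the control library, and 4 and 8 of 26 in the WMI library.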

How the data were processed

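Cerebral cortex of 1 control and 1 WMI sample was profiled by droplet scRNA-seq. The deposited counts are UMIs per gene and barcode, made by the authors with Cell Ranger 6.1.1. The labels name mm9, but all 55450 gene identifiers and symbols matched GENCODE M21 of GRCm38, and 22 of the 69 members overlap another gene on the same strand. Barcodes with at least 1000 UMIs, 500 genes and at most 10% mitochondrial UMIs were kept, doublets were removed at an assumed rate of 0.8% per 1000 cells, and cells were clustered (2000 variable features, 30 components, resolution 0.8) with Seurat 5.3.0 in R 4.3.3 without the 69 members among the features. Clusters were named from marker lists, with the limit on library share given above for excitatory and inhibitory names. UMIs were summed per class and library with Python 3.11.15, numpy 2.4.6, pandas 2.3.3 and scipy 1.17.1, and given per 1000000 UMIs (CPM) with exact Poisson intervals, log2 ratios with exact conditional binomial intervals, and shares of cells after thinning to 1000 UMIs with Clopper-Pearson intervals. Intervals are at 95%. Free RNA was estimated from the median ratio of marker levels in a class to their levels in the whole library. Glial markers served for excitatory neuron-like cells, and the 10 excitatory markers for every other class. The log2 ratios and their intervals were tested on counts simulated with counting error only. Doublet removal, clustering, naming, thinning and the free-RNA estimate were not tested in this way. Named genes had at least 100 UMIs in a class and were at least 4-fold above other named cells in both libraries, or at least 2-fold apart along the OL lineage in both or between WMI and control with an interval that leaves out 0. Genes of known ligand and receptor pairs were named too. The members, lists and rules were chosen with earlier results of these data known. The genes named for excitatory clusters, those named under 2-fold and the subtraction of free RNA were chosen after seeing the data.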

Additional observations from a re-analysis of the deposited data

Results flagged for a closer look

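*Sema3e*, the secreted ligand of PLXND1, moved in opposite directions along the OL lineage in the libraries. Its log2 ratio of mature OL-like over OPC-like cells was -0.82 (interval -1.50 to -0.17) in the control and 0.90 (0.30 to 1.48) in the WMI library. The levels were 56.9 and 32.3 CPM in control OPC-like and mature OL-like cells, and 39.7 and 74.2 in those of the WMI library. The free-RNA share was estimated at 62.4% and 67.4% in OPC-like cells and at 52.9% and 27.4% in mature OL-like cells. The estimate that follows for *Sema3e* lay above its level in control mature OL-like and WMI OPC-like cells. It lay below the level in control OPC-like and WMI mature OL-like cells. The part of free RNA in the *Sema3e* ratios was not tested. The difference between the libraries was not tested either, since each condition has 1 library.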

How the results depend on the processing

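No paired analysis was possible because each condition has 1 library. The values below are numbers of members past 2-fold in either direction, against 3 in excitatory neuron-like, 2 in inhibitory neuron-like, 2 in astrocyte-like, 0 in OPC-like, 2 in pre-OL-like, 1 in mature OL-like, 4 in microglia-like and 1 in fibroblast-like cells. The share of all genes is not given for the changed settings. These counts therefore show only how the numbers moved with the processing, and not a result about the members. Below are mainly the shifts that were larger in proportion. A class that is not listed can also have moved, as from 4 to 6 in microglia-like cells without cells with a UMI of *Xist*. With at least 30 UMIs required they became 4 in inhibitory neuron-like, 4 in astrocyte-like, 1 in OPC-like, 4 in pre-OL-like, 4 in mature OL-like, 8 in microglia-like and 2 in fibroblast-like cells, and the counts between OPC-like and mature OL-like cells became 25 in the control (15 before) and 36 in the WMI library (21 before). With at least 300 UMIs they became 1 in inhibitory neuron-like, 1 in astrocyte-like, 0 in pre-OL-like, 0 in mature OL-like, 2 in microglia-like and 0 in fibroblast-like cells. With doublets kept there were 0 in mature OL-like and 2 in microglia-like cells. At a resolution of 1.6 there were 2 in microglia-like cells, and at 0.4 there were 1 in pre-OL-like and 0 in fibroblast-like cells. With each cell scaled to the same total there were 0 in mature OL-like and 0 in fibroblast-like cells. Scaling by the median ratio gave 3 in astrocyte-like and 6 in microglia-like cells, and 17 members past 4-fold summed over classes (23 before). With clusters given equal weight there were 1 in excitatory neuron-like and 3 in fibroblast-like cells. Without cells with a UMI of *Xist* there were 1 in astrocyte-like, 1 in pre-OL-like and 5 in fibroblast-like cells.

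After the data were seen, the estimated free RNA was subtracted, which gave 7 in excitatory neuron-like, 8 in inhibitory neuron-like, 10 in astrocyte-like, 8 in OPC-like, 13 in pre-OL-like, 4 in mature OL-like, 7 in microglia-like and 8 in fibroblast-like cells, and 35 members past 4-fold summed over classes (23 before). Whether all genes moved as much is not given, for these or for the other counts of this paragraph. Counting the unnamed neuronal clusters of the control library as excitatory neurons gave 1 in excitatory neuron-like cells. These single ratios reversed: with free RNA subtracted *Nrp2* in pre-OL-like cells was at -0.93, and *Efna5* and *Slit2* in microglia-like cells were each at 0.71, while *Sema6d* in fibroblast-like cells was at -0.02 at a resolution of 0.4. Members with a UMI in at least 10% of cells numbered 20 in control and 21 in WMI OPC-like cells and 16 and 18 in mature OL-like cells, and without thinning 34, 38, 39 and 41. The causes were not tested. Depth limits the small classes, such as fibroblast-like (53 and 88 cells), mature OL-like (93 and 51) and endothelial-like cells (21 and 15), and the variation between mice is not covered by any interval.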
